A study of Schmidtea mediterranea with 9 samples.

Results

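The comparison described here sets dividing stem cells of the planarian Schmidtea mediterranea taken 48 h after amputation of the tail and pharynx against the same cells of uninjured animals. Its members are 6 of the 9 libraries of the series, chosen by their titles: 3 of the posterior wound and 3 of the 0 h control. The remaining 3 libraries come from animals whose head was removed 48 h earlier. They entered the fit for its estimate of the spread, and their values are given where they show how the 2 wounds compare.

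Planarians are flatworms that rebuild missing body parts from neoblasts, the only dividing cells of the adult animal. A wound that removes tissue is followed by a body-wide and then a local wave of neoblast division. Some neoblasts then switch on transcription factors of the tissue to be replaced, which is known as neoblast specialization. The pharynx is the feeding tube in the middle of the trunk.

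All groups were starved animals of the asexual strain. Tissue of the pre-pharyngeal region was dissociated, and live cells with a DNA content above that of resting cells (the X1 gate, high in Hoechst and low in propidium iodide) were sorted. In the posterior group this region lies in front of the wound left by the tail and pharynx amputation, in the anterior group it lies behind the wound left by head amputation, and in the control it was taken at 0 h. The number of animals behind a library is not given in the labels. The controls were taken at 0 h only, so the wound and the elapsed time cannot be told apart. In a sorted population, fewer cells of a type and less RNA per cell cannot be told apart either.

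The posterior libraries held 17017960 to 19412889 mapped reads, and the control libraries 14674800 to 23700877. Unmapped reads made up 3.96% to 5.46% of the posterior libraries and 4.40% to 11.4% of the control libraries, with control replicate 1 at the top (95% Wilson interval 11.36% to 11.39%, an interval for counting error alone). The counted features are assembled contigs, and those of 1 assembler component, the unit closest to a gene, were summed, which gave 46724 components. Of these, 21322 passed the filter on low counts. At many components that separate the posterior libraries from control replicates 1 and 2, control replicate 3 had levels like the posterior ones. Over components of at least 8 CPM (defined below), control replicates 2 and 3 were the controls nearest to each other, and control replicate 1 lay further from both. Control replicate 3 was nearer still to posterior replicate 1. The median absolute log2 difference was 0.137 between those 2 libraries and 0.151 between control replicates 2 and 3. Whether the label of control replicate 3 is right was not tested, and every value set against the controls includes it unless stated. The files used here do not pair components with gene names, so the sorted cell type was not checked against neoblast markers, no component is given a role, and at most 2 identifiers per direction are printed. Other components are given by the length of their longest contig. Levels are in CPM, read counts relative to the library's total, scaled between libraries by the trimmed mean of M values.

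After the tail and pharynx amputation 6 components rose and 0 fell. The rises ran from 1.80-fold to 7.05-fold, and at each of the 6 all 3 posterior libraries lay above all 3 control libraries. The 6 are 0.0281% of the components tested, and the falls 0%. The 6 were components of 1 contig each, as were 15110 of the 21322 tested. Their lengths were between 396 and 1641 bases, and each of the 6 had a mean over the 9 libraries of at least 11.8 CPM. The calls come from edgeR's quasi-likelihood test on all 9 libraries and p-values adjusted by Benjamini-Hochberg across all 21322, with 0.05 as the threshold. At an unadjusted p under 0.05, 562 components (2.64%) were higher and 708 (3.32%) were lower. With upper quartile scaling the calls were 7 higher and 1 lower. DESeq2 called 34 higher and 22 lower, the 6 among them.

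The number of calls depended on single libraries. Of the posterior libraries, leaving out replicate 1 gave 2 calls, replicate 2 gave 3 and replicate 3 gave 6. Of the control libraries, leaving out replicate 1 gave 9 calls, replicate 2 gave 2 and replicate 3 gave 292. Leaving out anterior replicate 1, 2 or 3 gave 3 each time, although no anterior library enters the contrast. Fitted to the 6 libraries alone, edgeR called 0, with 714 components at an unadjusted p under 0.05.

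The steepest rise was that of comp1298_c0, a component of 640 bases. It stood at 48.4, 61.2 and 64.7 CPM in posterior replicates 1 to 3, against 5.42, 7.22 and 11.9 CPM in control replicates 1 to 3. The lowest posterior library was thus 4.06 times the highest control library, control replicate 3. The means were 58.1 ± 8.58 CPM after the posterior wound and 8.19 ± 3.37 CPM in the controls (SD, n = 3 each), a log2 difference of 2.82 with an SE of 0.26 (edgeR adjusted p = 0.00721). The call passed in all 9 fits that left out 1 library, with an adjusted p of at most 0.0455 (without control replicate 2).

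The second steepest was comp11581_c0, of 1307 bases. It had 18.8, 15.5 and 15.1 CPM in the posterior libraries, against 2.28, 3.70 and 4.27 CPM in the control libraries. The groups did not overlap, which the rule for naming a rise required, and the lowest posterior level was 3.53 times the highest control level. The fitted log2 change was 2.25 with an SE of 0.23 (edgeR adjusted p = 0.00721). Without posterior replicate 1 the adjusted p was 0.0663, and without control replicate 2 it was 0.0597.

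The component of 396 bases had the highest posterior level of the 6. It stood at 350.8, 403.4 and 369.1 CPM in the posterior libraries, against 93.1, 131.1 and 87.2 CPM in the control libraries. Every posterior library lay at least 2.68 times above the highest control library, control replicate 2. On the log2 scale the change was 1.85 with an SE of 0.19 (edgeR adjusted p = 0.00721), and this call, too, passed in all 9 fits that left out 1 library. Per kilobase its level was 945.6 CPM after the posterior wound and 262.1 CPM in the controls, the highest of the 6 on that scale in both groups.

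The component of 1641 bases changed least and most evenly. It had 227.1, 244.3 and 232.9 CPM after the posterior wound, against 131.0, 133.1 and 127.1 CPM in the controls. Within either group the libraries lay close together, and the gap between the groups was 1.71-fold at its narrowest. The fitted log2 change was 0.85 with an SE of 0.094 (edgeR adjusted p = 0.0105). The call did not pass in 6 of the 9 fits that left out 1 library, where the adjusted p reached 0.115.

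The component of 803 bases had 12.8, 13.1 and 11.1 CPM in the posterior libraries, against 4.57, 4.64 and 4.18 CPM in the control libraries. Both groups were narrow and did not overlap. Its fitted log2 change was 1.47 with an SE of 0.16 (edgeR adjusted p = 0.0105), and it, too, missed the threshold in 6 of the 9 fits, with an adjusted p of up to 0.0885.

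The component of 607 bases had 51.8, 57.6 and 70.2 CPM in the posterior libraries, against 29.5, 29.2 and 25.3 CPM in the control libraries. The posterior libraries spread more widely than the controls, with replicate 3 highest. On the log2 scale the change was 1.10 with an SE of 0.14 (edgeR adjusted p = 0.0303). This was the least stable of the 6 calls, since it passed in 1 of the 9 fits that left out 1 library, the one without control replicate 3. In the other 8 the adjusted p lay between 0.0540 and 0.178.

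**Figure D1:**
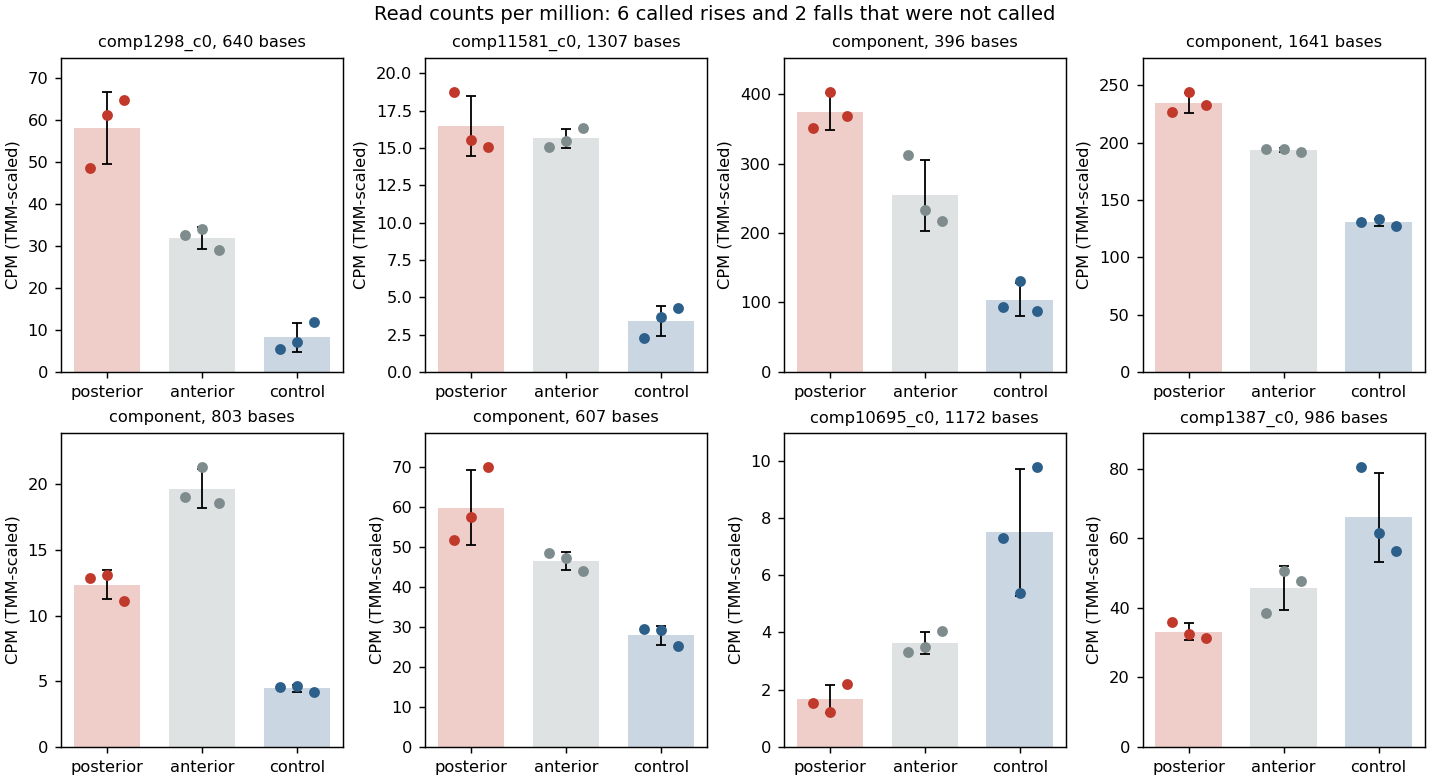
Level in CPM (scaled, linear axes from 0) in each library for the 6 components called higher and the 2 named falls that were not called; points are libraries, bars group means and lines SD (n = 3). In the 6 rises every posterior point lies above every control point, with comp1298_c0 at 48.4 to 64.7 CPM after the posterior wound and 5.42 to 11.9 CPM in the controls.

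At these 6 components the anterior libraries were also above the controls, so the levels of the 2 wounds are given side by side. The wounds share their controls, and the difference between them was tested as a contrast of its own in the same fit. At comp1298_c0 the anterior libraries had 32.6, 34.0 and 29.1 CPM, all under the lowest posterior library. The difference, posterior minus anterior, was 0.87 on the log2 scale (95% interval 0.34 to 1.40, unadjusted p = 0.00428, adjusted p = 1.00 by edgeR). At comp11581_c0 the anterior libraries had 15.1, 15.5 and 16.3 CPM and overlapped with the posterior libraries. The interval of that difference ran from -0.40 to 0.55 on the log2 scale.

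The component of 803 bases differed in the other direction. Its anterior libraries had 19.1, 21.3 and 18.6 CPM, all above the posterior libraries, a log2 difference of -0.67 (95% interval -1.02 to -0.32, unadjusted p = 0.00140, adjusted p = 1.00 by edgeR). At the components of 396, 1641 and 607 bases the posterior wound was higher by log2 0.56, 0.28 and 0.36, with all adjusted p at 1.00. Over all components, edgeR called 0 (0%) between the wounds, and 581 (2.72%) had an unadjusted p under 0.05. DESeq2 called 17. The 6 had been selected for their difference from the controls, and the posterior levels behind that selection also enter the contrast between the wounds. Its differences at the 6 may thus lean upward. The intervals and unadjusted p describe selected components and are not adjusted for their number.

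No component passed edgeR's test as lower after the posterior wound. The component nearest to the threshold was comp10695_c0, with 2 contigs, the longer of 1172 bases. It stood at 1.55, 1.24 and 2.19 CPM in the posterior libraries, against 7.31, 5.37 and 9.78 CPM in the control libraries. These levels rest on 28, 25 and 38 reads after the posterior wound and on 112, 125 and 227 reads in the controls. The groups did not overlap, which the rule for naming a fall required, and the lowest control level was 2.45 times the highest posterior level. The fitted log2 change was -2.17 with an SE of 0.30 (edgeR adjusted p = 0.0547). It passed under 7 of 21 alternatives, among them DESeq2 (adjusted p = 1.08e-06), upper quartile scaling (0.0425) and the fit without control replicate 3 (0.0302). The anterior libraries lay between the groups, at 3.33, 3.48 and 4.05 CPM.

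The next by p was comp1387_c0, with 10 contigs, the longest of 986 bases. It had 35.9, 32.4 and 31.4 CPM in the posterior libraries, against 80.6, 61.5 and 56.3 CPM in the control libraries, with control replicate 1 standing highest. On the log2 scale the change was -0.99 with an SE of 0.16 (edgeR adjusted p = 0.167). All 10 of its contigs had a lower mean after the posterior wound, and at 9 of them every posterior library lay below every control library. The longest contig was the exception, with means of 0.209 CPM after the wound and 0.367 CPM in the controls. Reads shared between such contigs may be split among them in ways the counting does not show. The component was named for summed levels that were lower and did not overlap. Its contigs make up that sum, so the counts of contigs are no separate evidence. DESeq2 called this component (adjusted p = 0.00331), as did edgeR without control replicate 3 (0.0302).

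The next rises by p missed the threshold. The component of 490 bases had 59.3, 62.9 and 60.5 CPM in the posterior libraries, against 14.8, 25.4 and 26.5 CPM in the control libraries (edgeR adjusted p = 0.0618). The groups did not overlap, and the anterior libraries, at 61.4, 77.6 and 57.7 CPM, were in the posterior range or above it except for replicate 3. The component of 2692 bases had 5.26, 6.04 and 4.15 CPM in the posterior libraries, against 2.02, 1.33 and 1.55 CPM in the control libraries (edgeR adjusted p = 0.167). Its anterior libraries, at 1.66, 1.98 and 2.33 CPM, lay near the controls. The posterior minus anterior difference there was 1.37 on the log2 scale (95% interval 0.78 to 1.96, edgeR adjusted p = 0.904, the lowest of that contrast and shared with other components).

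The largest fitted falls were not called. A log2 fold change of at least 1 in size was fitted at 379 components that were higher and 470 that were lower, of which 154 and 214 had groups that did not overlap. Over all components tested, 4.36% lay entirely above the controls and 5.7% entirely below. Fold change and overlap come from the same libraries, so counts of separated groups among large changes are a description and no separate evidence. Of the 379, 5 were called. At 2 or more in size there were 10 higher and 25 lower, and the groups did not overlap at 8 and 9 of them. Of the 10, comp1298_c0 and comp11581_c0 were called, and these 2 were the only rises of that size with at least 8 CPM. Among components of at least 8 CPM on average, 6 were lower by a log2 of 3 or more, and at 0 of these did the groups separate.

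These 6 components, 232 to 629 bases long, were high in control replicate 2. There they held 2114 to 5943 reads each. Control replicates 1 and 3 together held 6 to 19 reads of each, and the 3 posterior libraries together 19 to 122. Anterior replicate 2 also stood apart from its group, with 4.18 to 31.3 CPM, against 0.111 to 1.46 CPM in anterior replicates 1 and 3. The lowest fitted log2 fold change, -6.43 at the component of 293 bases, comes from 0.221, 0.0495 and 0.808 CPM in the posterior libraries against 0.261, 90.9 and 0.0862 CPM in the control libraries (adjusted p = 0.780 by edgeR). Without control replicate 2 the fitted log2 fold changes of all 6 were positive, between 1.09 and 2.22, with adjusted p of 0.925 to 0.943 by edgeR.

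**Figure D2:**
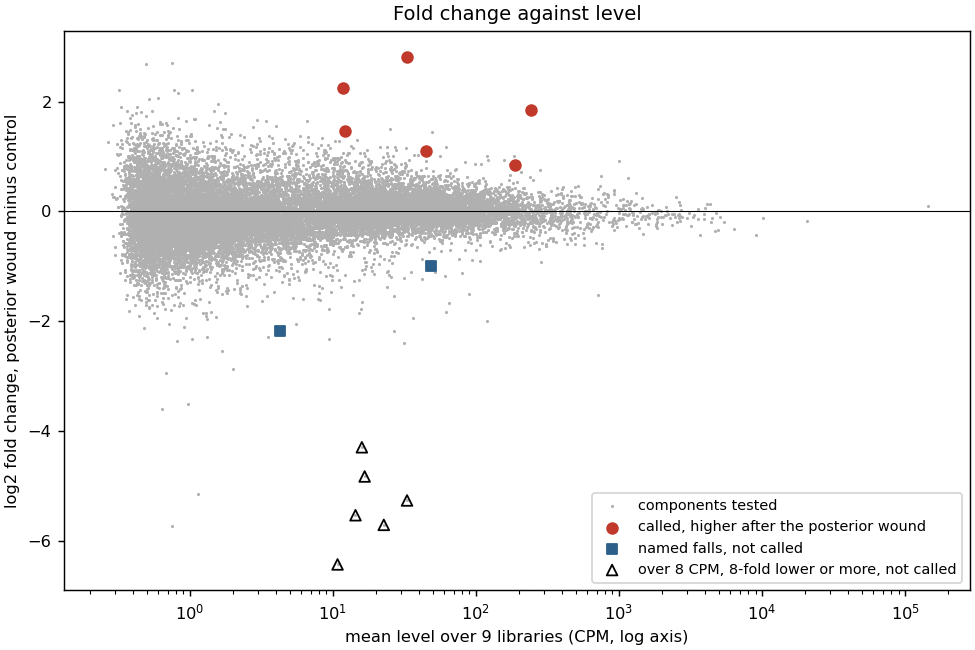
Log2 fold change of the posterior wound minus the control (vertical axis) against the mean level over 9 libraries (CPM, log axis) for the 21322 components tested. The 6 calls lie between 0.85 and 2.82, while the 6 open triangles, at -4.30 to -6.43, were high in control replicate 2 among the 6 libraries compared and were not called.

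The posterior libraries lay entirely above the controls at 930 components (4.36%) and entirely below them at 1216 (5.7%). Random assignment of 6 libraries to 2 groups of 3 separates them at a share of 0.10, both directions together. The 2 shares together are near that value, so the counts are a description and no sign of a difference. The shares above and below changed with the level. Among components of 2 to 8 CPM, 3.43% were above and 7.58% below. Among those over 128 CPM, 9.69% were above and 3.77% below. Components of 32 to 128 CPM had the same order, with 6.89% above and 3.61% below. The order within these 3 classes was the same with DESeq2's size factors and with upper quartile scaling, where the class over 128 CPM had 8.17% above and 6.28% below. The median log2 fold change of a class followed these shares in part. It had the sign of the larger share in the classes up to 8 CPM (-0.077, -0.099 and -0.072) and at 32 to 128 CPM (0.029). It had the opposite sign over 128 CPM (-0.037, with 56.9% of components below 0) and at 8 to 32 CPM (0.024, with 46.7% below 0). The 6 calls fell in the upper classes, with 2 at 8 to 32 CPM, 2 at 32 to 128 CPM and 2 over 128 CPM. The SE of the fitted log2 values had a median of 0.33 over all components and 0.17 over those of at least 8 CPM.

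**Figure D3:**
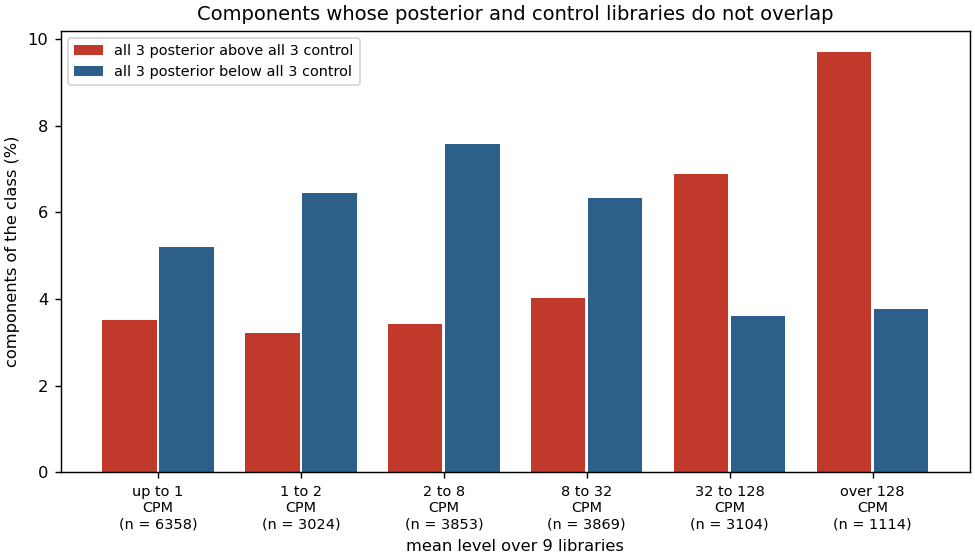
Share of components (%) whose 3 posterior libraries all lie above (left bars) or all below (right bars) the 3 control libraries, by mean level over 9 libraries. The share above reaches 9.69% over 128 CPM, where the share below is 3.77%, and the order is the opposite up to 32 CPM.

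The libraries of a group differed among themselves about as much as the groups did. Over the 8087 components of at least 8 CPM, the median absolute log2 difference between 2 posterior libraries was 0.125 to 0.341 and that between 2 control libraries 0.151 to 0.380. Between a posterior and a control library it was 0.137 to 0.454, a range that covers nearly all within-group values. Control replicates 2 and 3 differed by 0.151, and control replicate 1 lay 0.287 and 0.380 from them. The median SD of a component's log2 level was 0.186 after the posterior wound, 0.230 in the controls and 0.105 after the anterior wound. The fit used 1 estimate of spread per component for all 3 groups, so the narrower anterior group entered the SE of every call. Posterior replicate 3 stood apart, with 43.6% of these components above all 3 controls. Posterior replicate 1 had 18.7% there and posterior replicate 2 had 15.1%. Below all 3 controls were 21.1%, 27.9% and 22.7% in posterior replicates 1 to 3. A library lies outside 3 others at many components without any group difference, so these shares serve only to compare the posterior libraries.

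The fold changes shifted with contig length. Among components of at least 8 CPM, the median log2 fold change was 0.19 for those of up to 500 bases, 0.12 for 500 to 1000, 0.029 for 1000 to 2000, -0.056 for 2000 to 4000 and -0.15 for the 433 over 4000 bases. Of the last class, 0.231% lay entirely above the controls and 3.46% entirely below. Over all components of at least 8 CPM the median was 0.015.

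A score per library places this pattern among replicates. The score is the median log2 level of components over 4000 bases, relative to their mean over 9 libraries, minus that of components of 500 to 1000 bases. It was 0.0066, 0.322 and -0.637 in posterior replicates 1 to 3, against 0.593, 0.226 and -0.293 in control replicates 1 to 3. The groups overlapped, with means of -0.10 ± 0.49 after the posterior wound and 0.18 ± 0.45 in the controls (SD, n = 3 each; exact two-sided permutation p = 0.60, where 3 against 3 cannot go below 0.10). The pattern rests on 2 libraries. The same difference between classes, taken on the median of posterior minus control mean log2 levels, was -0.28 with all libraries, -0.017 without posterior replicate 3 and -0.075 without control replicate 1. The other single libraries gave values from -0.25 to -0.50. With the score as a covariate, added after the data were seen, edgeR called 15 higher and 2 lower, the 6 among them. The share of reads of the most abundant component was 12.5% to 16.6% in the posterior libraries and 9.19% to 16.9% in the controls.

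**Figure D4:**
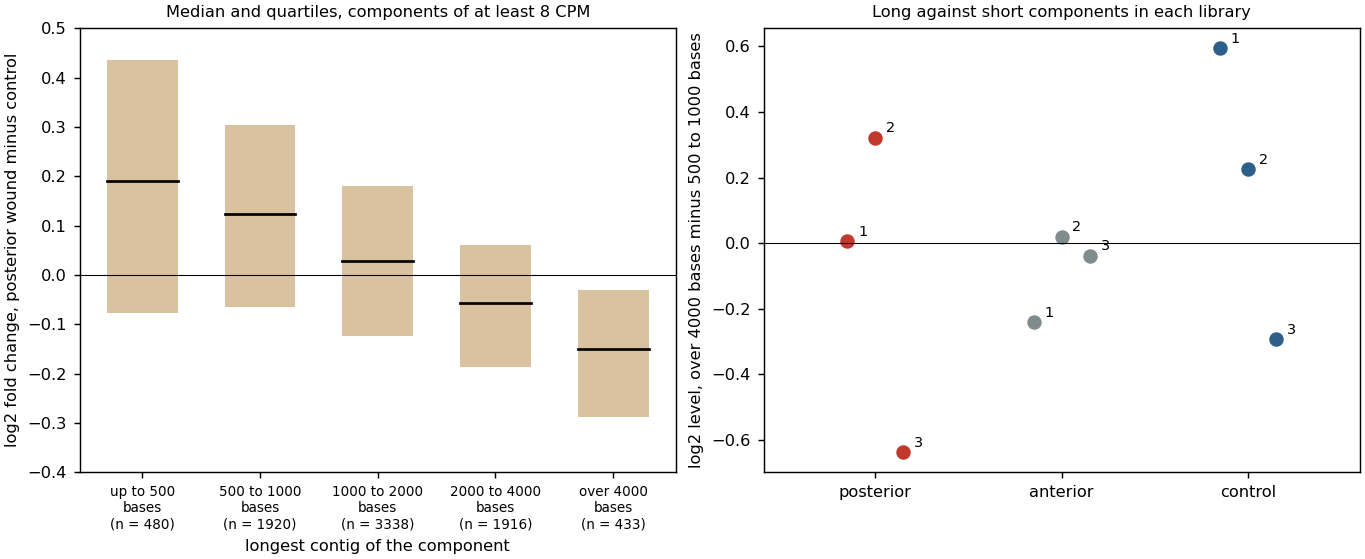
Left, median (line) and quartiles (box) of the log2 fold change of the posterior wound minus the control by length of the longest contig, for components of at least 8 CPM. Right, log2 level of components over 4000 bases minus that of components of 500 to 1000 bases in each library, labelled by replicate; posterior replicate 3 (-0.637) and control replicate 1 (0.593) are the ends of the range.

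Control replicate 3 decided the size of the list more than any other library. Without it, edgeR called 265 components higher and 27 lower, and the 6 were among the 265. Control replicate 3 did not enter the choice of these components. The posterior libraries and control replicates 1 and 2 did, so a gap between them at these components was set by the choice. The 6 calls passed without control replicate 3, with fitted log2 changes of 0.84 to 3.20 and adjusted p of 1.35e-04 to 0.0302 by edgeR. At the 265 the posterior libraries were above the mean of control replicates 1 and 2 by a median log2 of 1.62, or 3.07-fold, and control replicate 3 was above it by 1.63. Control replicate 3 was nearer to the posterior mean than to the other controls at 249 of the 265 (94.0%). Over all 22705 components tested in that fit it was nearer to the posterior mean at 69.6%, and its median was -0.0060.

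Summed over the 265, levels were 9495, 9201 and 10769 CPM in posterior replicates 1 to 3, against 3447, 4315 and 8875 CPM in control replicates 1 to 3. The anterior libraries were spread as well, above control replicates 1 and 2 by a median log2 of 1.19, 0.52 and 1.21 in replicates 1 to 3. Anterior replicate 2 was thus the nearest of the wounded libraries to those controls. The 265 had a median contig length of 707 bases, against 706 for all components tested in that fit, and a median level of 13.4 CPM, against 2.36 CPM. At the 27 components called lower, the posterior libraries were below control replicates 1 and 2 by a median log2 of -1.29 and control replicate 3 by -0.56. It was nearer to the posterior mean at 13 of the 27. Control replicate 3 had the lowest share of unmapped reads of the controls, 4.40%, and the lowest long-contig score of the controls, -0.293, and their part in this was not tested.

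**Figure D5:**
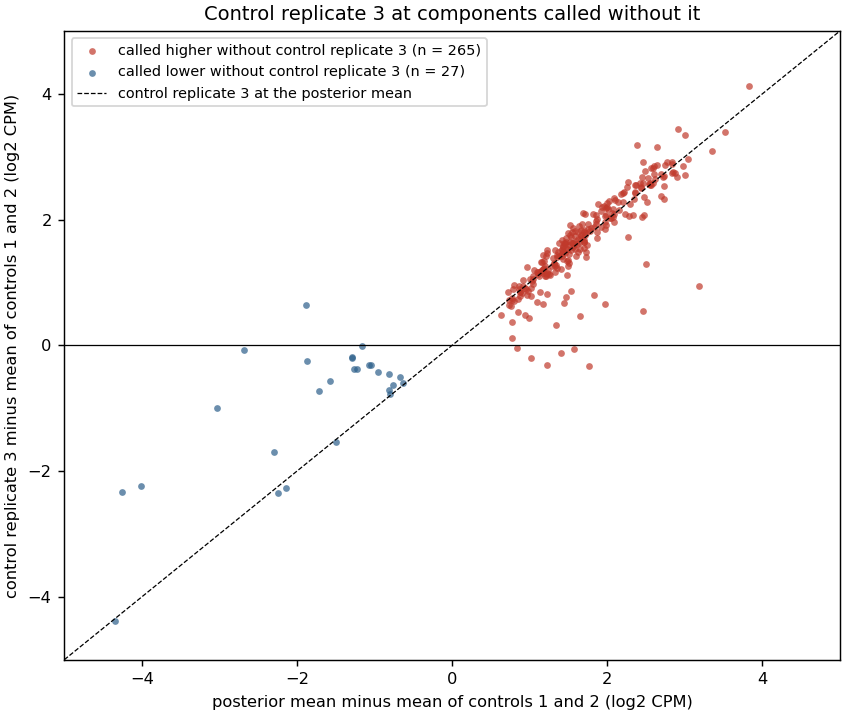
Level of control replicate 3 (vertical axis) against the posterior mean (horizontal axis), both as log2 CPM minus the mean of control replicates 1 and 2, at the 265 components called higher and the 27 called lower in the fit without control replicate 3. At the 265, control replicate 3 follows the dashed line of equal level, with medians of 1.63 for it and 1.62 for the posterior wound.

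Few components were detected in 1 group alone. A read in every posterior library and 0 in every control library was found at 85 components, with at most 17 reads in the sum of the 3 posterior libraries. The opposite, a read in every control library and 0 in every posterior library, was also found at 85, with at most 15 reads summed. The medians were 4 and 5 reads. None of them had enough reads to be tested.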

How the data were processed

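Poly(A) RNA of sorted cells was sequenced, with DESeq, SAMtools and Bowtie2 2.0 listed in the submitters' processing notes; no source used here names the assembly. The authors deposited 1 file per library with raw counts of mapped reads per contig, unmapped reads, and the contig length (a quantity other than expression). Of 63423 contigs, those of 1 component were summed. A deposited summed table and a table of DESeq results built on it were not used, because its entries for components of several contigs repeat posterior replicate 2 in the column of replicate 3. No column was without a sample (0), and unmapped reads stayed out of library sizes.

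Libraries were grouped by title, 3 per group. The labels do not state that replicates are separate animals, so the p-values reflect only how much these libraries vary, perhaps technically. None of the 9 pairs of replicates within the 3 groups was a repeat of 1 library (chi-square over degrees of freedom 6.89 to 69.5, well above sampling noise).

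The deposited counts entered edgeR 4.0.16 (R 4.3.3): TMM scaling, filterByExpr (minimum count 10; components tested held 99.5% to 99.8% of mapped reads), 1 quasi-likelihood fit of 3 groups over 9 libraries, calls at an adjusted p of 0.05. The SE is the log2 fold change divided by the root of F. Log2 levels used a prior count of 2. The procedure was tested on simulated data. Alternatives were other scalings, filters and tools (DESeq2 1.42.0, limma 3.58.1), a replicate block, the 6 libraries alone, unsummed contigs, a minimum log2 fold change of 1, and each library left out.

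Named components were the 2 steepest called rises whose groups did not overlap and whose posterior mean reached 2 CPM, and, with 0 called falls, the 2 non-overlapping lower components with the lowest p and at least 2 CPM in the controls. The comparison, lists and rule were chosen with earlier results of these data known. Marker lists had 0 names to match and were not used.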

Additional observations from a re-analysis of the deposited data

How the results depend on the processing

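The 6 calls of the posterior wound were 56 with DESeq2, 0 with the 6 libraries alone, 0 at a minimum log2 fold change of 1, 17 with the long-contig score as a covariate (chosen after the data were seen) and 2 to 292 with 1 library left out; other scalings, filters, limma-voom, unsummed contigs and removal of the most abundant component gave 5 to 8. The 0 calls between the wounds were 17 with DESeq2, 4 with the 6 libraries of that comparison alone and 0 in the remaining alternatives. Components with groups that did not overlap numbered 2146, and 3848 without a filter, 1218 at 5 CPM or more in 3 libraries, and 3033 to 6941 with 1 library left out. The filters changed the number of components compared. With 1 library left out the rule asks less, since fewer levels must lie apart, so those counts are not comparable with 2146. The cause of the other shifts was not tested. At the 6 calls and the 2 named falls, the fold change against the control kept its direction in every alternative. The other components described were not followed through all alternatives. Of these, the 6 largest falls of components of at least 8 CPM turned positive without control replicate 2. The difference between the wounds reversed at comp11581_c0 without posterior replicate 1 (-0.034, with a range of -0.034 to 0.13 over single libraries left out) and at contig 4 of comp1387_c0 (0.091).

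With a replicate block, edgeR called 8 after the posterior wound, 6 higher and 2 lower, with 5 of the 6 calls kept, and 0 between the wounds. The component of 607 bases was lost (adjusted p = 0.0816), and comp10695_c0 was called lower (0.0266). Replicate numbers were not taken as pairing. Correlations were taken between libraries of different groups, on log2 levels minus the component's mean in the library's own group. Over all components tested, a correlation above 0.1 was found at 3 of 9 pairs of libraries with 1 number, and 4 of 9 libraries had their highest correlation with a library of that number. Over components of at least 8 CPM these counts were 5 and 5. Between posterior and control libraries of 1 number, the correlations were 0.048, 0.346 and 0.451 over all components tested and 0.103, 0.282 and 0.428 at 8 CPM or more, for numbers 1 to 3. Between posterior and control libraries of different numbers they ran from -0.479 to 0.222 and from -0.477 to 0.254. Depth and spread limit the comparison most at low levels, with a median SE of 0.33 on the log2 scale over all components and 0.17 at 8 CPM or more.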
